A study of Mus musculus with 11 samples.

Results

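The genes described here encode intermediate filament proteins: the neurofilament subunits Nefl, Nefm and Nefh, the related neuronal proteins Ina and Prph, and Vim, Gfap and Nes of glia, vessel cells and progenitors. These 8 genes were taken by symbol from the probe sets annotated with a single gene, which gave 9 probe sets (Ina has 2) of 35556 on the array, or 8 genes of 19938. The family was selected on the measured difference between genotypes (lower Nefl and Nefm in the mutant arrays), so the genotype differences of its members are given as descriptions, with standard errors and no p-value. The number of members that the fit over all genes called is given once, as a count.

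The samples were nucleus accumbens, the ventral part of the striatum, from 5 Rarb-null mice and 6 wild-type (WT) littermates, 1 array per mouse. All were behaviourally untested males aged 4 to 5 months, bred by crossing heterozygotes on a background that mixes C57BL/6J and 129SvEms/j. Rarb is the gene of retinoic acid receptor beta, a transcription factor that retinoic acid activates, and the null allele is not described further in the sources used here. The tissue, enriched in the shell, came from 0.5 mm punches of 3 cryosections of 300 µm. Values are log2 expression from Affymetrix Mouse Gene 1.0 ST arrays after robust multi-array analysis (RMA), and each difference is the Rarb-null mean less the WT mean. Titles and design text give 5 null and 6 WT mice, whereas the extraction protocol gives these sizes the other way round.

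Intermediate filaments are the rope-like part of the cytoskeleton. In neurons the light chain NF-L (Nefl), the medium chain NF-M (Nefm) and the heavy chain NF-H (Nefh) assemble with alpha-internexin (Ina) into neurofilaments, which fill axons and set their calibre; the long tails of NF-M and NF-H are heavily phosphorylated. Astrocytes build filaments of GFAP and vimentin instead, and nestin is typical of neural progenitors. Striatal projection neurons, the main cells of the accumbens, are small cells, while large interneurons and incoming cortical axons are rich in neurofilaments.

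Rarb itself fell to 9.72 to 10.01 in Rarb-null arrays, against 11.70 to 11.81 in WT arrays (-1.86, SE 0.047, limma Benjamini-Hochberg adjusted p = 4.44e-11), so the titles and the Rarb level match. Of the genes with a value, 11963 had a mean above the 40th percentile of genes (log2 6.99) and were tested; 19.6% of them were called at an adjusted p of 0.05, 1436 lower and 905 higher in Rarb-null arrays, with a median difference of -0.017. For 11.2% of genes the 2 sets of arrays did not overlap (7.33% with Rarb-null below WT, 3.82% with Rarb-null above it). Array medians over all probe sets were 7.08 to 7.11 in Rarb-null and 7.02 to 7.06 in WT arrays. RMA left this small difference in place. Centring on array medians, here and below, used the median of the tested genes instead of that of all probe sets. It moved the median difference of these genes from -0.017 to 0.023. The calls then split into 939 lower and 1677 higher in place of 1436 and 905. Markers of projection neurons were clearly present, with 10 of 12 measured, all above the filter, and a mean level of 11.64 ± 0.05 in Rarb-null and 11.86 ± 0.03 in WT arrays (SD, n = 5 and 6).

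The light and medium chain genes had the most negative differences of the family. Nefl read 11.01, 11.08, 10.83, 10.90 and 11.09 in Rarb-null arrays 1 to 5, against a lowest value of 11.58, a median of 11.65 and a highest value of 11.79 in the 6 WT arrays. The highest Rarb-null array thus lay 0.49 log2 units below the lowest WT array. The mean was 10.98 ± 0.11 in Rarb-null and 11.67 ± 0.08 in WT arrays (SD, n = 5 and 6), a difference of -0.68 (SE 0.053), so that WT arrays stood 1.61-fold higher. Of all genes tested, 0.443% had a more negative difference.

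Nefm showed the larger difference of this pair. Its values were 8.20, 8.37, 7.998, 8.07 and 8.44 in Rarb-null arrays 1 to 5, against 8.94, 9.24 and 9.42 as the lowest, median and highest of the WT arrays. Again every Rarb-null array was below every WT array, with a gap of 0.50 between them. The means were 8.22 ± 0.19 in Rarb-null and 9.20 ± 0.18 in WT arrays, which differed by -0.98 (SE 0.094), 1.98-fold higher in WT, and 0.134% of genes tested had a more negative difference. In a tissue extract, fewer cells of a type and less RNA per cell cannot be told apart, and this holds for every gene below.

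The heavy chain gene differed less. Nefh read 8.37, 8.48, 8.55, 8.45 and 8.63 in Rarb-null arrays, against 8.58, 8.62 and 8.92 as the lowest, median and highest WT values. In 4 of 5 Rarb-null arrays it lay below the lowest WT array, and replicate 5 lay inside the WT range. The difference was -0.19 (SE 0.065), with means of 8.50 ± 0.10 in Rarb-null and 8.69 ± 0.14 in WT arrays.

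**Figure D1:**
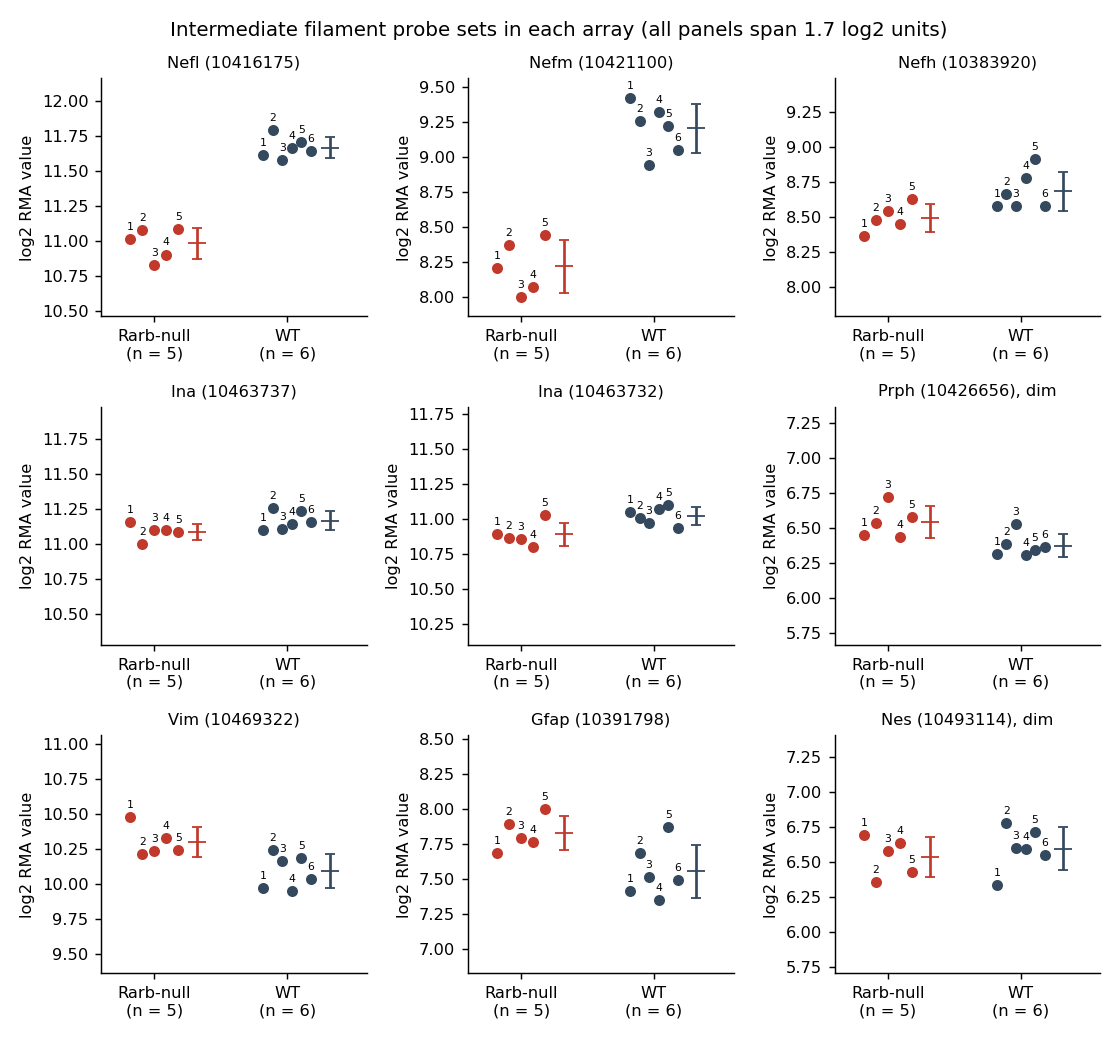
Log2 RMA values of the 9 intermediate filament probe sets in each array, with Rarb-null arrays (n = 5) left of WT arrays (n = 6), replicate numbers above the points, and the mean ± SD beside them. Nefl and Nefm are the panels in which the groups do not overlap; Prph and Nes are marked dim because their means lie below the level filter.

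Ina, whose product joins the neurofilament chains in central neurons, was read by 2 probe sets. Probe set 10463732, annotated with the RefSeq transcript, gave 10.89, 10.86, 10.86, 10.80 and 11.03 in Rarb-null arrays and 10.93, 11.03 and 11.10 as the lowest, median and highest WT values, a difference of -0.13 (SE 0.044). Probe set 10463737, annotated with a cDNA clone alone, gave 11.16, 11.00, 11.10, 11.10 and 11.08 in Rarb-null arrays and 11.10, 11.15 and 11.26 in WT arrays, a difference of -0.08 (SE 0.039). Both were slightly lower in the mutant, with 1 Rarb-null array (replicate 5 in the first, replicate 1 in the second) inside the WT range. The brighter 10463737 stood for the gene in the fit over all genes.

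Differences between probe sets within each array cancel a constant offset between arrays. They do not cancel the unequal spread of values, whose interquartile range was 3.38 to 3.49 in Rarb-null and 3.49 to 3.55 in WT arrays. The log2 value of Nefl minus that of Ina (10463737) was -0.11 ± 0.15 in Rarb-null and 0.50 ± 0.03 in WT arrays, and that of Nefm minus Ina was -2.87 ± 0.22 in Rarb-null and -1.96 ± 0.18 in WT arrays. For Nefh minus Ina the values were -2.59 ± 0.13 in Rarb-null and -2.48 ± 0.11 in WT arrays, and these ranges overlapped. Such differences between probe sets have no meaning as levels; only their shift between genotypes does. Nefl minus Nefm shifted by 0.30, to 2.76 ± 0.08 in Rarb-null against 2.46 ± 0.17 in WT arrays, since Nefm was reduced more. All 5 Rarb-null arrays (2.644 to 2.830) lay above the highest WT array (2.636), though the closest of them by very little.

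Prph, which encodes peripherin, a filament protein of peripheral and some central neurons, was dim. It gave 6.45, 6.54, 6.72, 6.44 and 6.58 in Rarb-null arrays and 6.31, 6.36 and 6.53 as the lowest, median and highest of the WT arrays, below the filter. The difference of 0.17 (SE 0.055) ran opposite to that of Nefl and Nefm, and 3 of 5 Rarb-null arrays lay above the highest WT array. No test was made at this level.

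The filament genes of astrocytes and vessel cells were on the other side. Vim, the vimentin gene, read 10.47, 10.21, 10.23, 10.32 and 10.24 in Rarb-null arrays, against 9.94, 10.10 and 10.24 as the lowest, median and highest WT values. The means were 10.30 ± 0.11 in Rarb-null and 10.09 ± 0.12 in WT arrays (0.21, SE 0.063), with 2 Rarb-null arrays above the highest WT array. Gfap, the astrocyte filament gene, read 7.69, 7.89, 7.80, 7.77 and 8.01 in Rarb-null arrays and 7.35, 7.51 and 7.87 in WT arrays, where the highest value belonged to replicate 5. Its means were 7.83 ± 0.12 in Rarb-null and 7.56 ± 0.19 in WT arrays (0.27, SE 0.085). Both genes were above the median WT array in every Rarb-null array, and their groups overlapped.

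Across the 11 sets of arrays that leave 1 out, the difference of Vim ran from 0.16 to 0.24 and that of Gfap from 0.23 to 0.34. With the mean level of cortical neuron markers as a covariate the difference of Gfap was 0.03. Nes, the nestin gene, was below the filter at 6.69, 6.36, 6.58, 6.64 and 6.43 in Rarb-null arrays and 6.33, 6.60 and 6.78 as the lowest, median and highest of the WT arrays. All its Rarb-null values lay inside the WT range, and the difference was -0.06 (SE 0.078).

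Over the family, 6 of 8 genes passed the filter, and the fit called 4 of these 6 (2 lower and 2 higher), where 19.6% of all genes were called. Groups did not overlap for 2 of the 6, where 11.2% of all genes had no overlap. Since this contrast was used to choose the genes, nothing is read from these counts. The median difference of the 6 was -0.13, against -0.017 over all genes tested. Nefh and Ina were not called in this fit. Nefh was called lower with a stricter level filter, trended and robust variances, array weights, a replicate block or the cortical marker covariate. Nefh was also called without WT array 3 or without Rarb-null array 5. Ina was called lower with its probe sets averaged, or with 10463732 in place of 10463737. The 2 higher calls were those of Vim and Gfap, lost in 6 and 8 of the 11 sets that leave out 1 array. Both were also lost with the cortical, oligodendrocyte or astrocyte marker level as a covariate, and without 3 arrays of extreme cortical marker level. The call of Gfap was lost with no filter and with repeated quantile normalisation as well, and that of Vim with the replicate number as a block.

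Promoter sequences are shown for Gfap and Vim, the members above the filter with higher means in Rarb-null arrays, because retinoic acid receptors bind DNA at pairs of a half-site close to AGGTCA. Each line gives the 250 bases before the annotated start, 5′ to 3′ on the gene's strand, from RefSeq on GRCm38.p6. Capitals mark the half-site AGGTCA or its reverse complement, and the TATA box motif TATAAA. Of the 8 genes, 5 matched the promoter table (Ina, Prph, Vim, Gfap and Nes); Nefl, Nefm and Nefh did not.
Gfap (chr11:102897201-102897450, minus strand): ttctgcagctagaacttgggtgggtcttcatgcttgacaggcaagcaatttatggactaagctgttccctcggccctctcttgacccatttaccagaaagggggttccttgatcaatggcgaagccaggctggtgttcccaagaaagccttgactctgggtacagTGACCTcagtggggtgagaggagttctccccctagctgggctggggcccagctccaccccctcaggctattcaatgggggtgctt
Vim (chr2:13574061-13574310, plus strand): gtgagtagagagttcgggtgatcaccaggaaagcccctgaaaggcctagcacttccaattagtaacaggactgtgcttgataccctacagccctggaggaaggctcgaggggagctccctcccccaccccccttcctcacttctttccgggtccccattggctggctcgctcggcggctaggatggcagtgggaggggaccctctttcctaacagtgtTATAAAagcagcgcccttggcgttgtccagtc

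The Gfap window held 1 half-site, on the opposite strand, beginning 85 bases before the start, whereas the Vim window held a TATAAA beginning 32 bases before the start and no half-site. AGGTCA on either strand was found in 14.02% of 32851 promoter windows of this length and TATAAA in 12.37%. The direct repeat of the half-site with 5 bases between, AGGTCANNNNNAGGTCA, was in none of the 5 windows of the family and in 3 of all windows. A match describes letters in a short window and not a bound site.

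Nefl and Nefm lie side by side on chromosome 14, with 0 protein-coding genes between them in the RefSeq order of GRCm38.p6. Rarb is on the same chromosome, 567 protein-coding genes away. Of the nearest 3 measured protein-coding genes on either side, 5 were below the filter (Gnrh1, Dock5, Adam7, Adamdec1 and Adam28), with differences from 0.02 to 0.11. Kctd9, the one that was tested, read 8.05, 8.15, 8.02, 8.17 and 8.23 in Rarb-null arrays and 8.19 to 8.41 in WT arrays (-0.15, SE 0.048, limma adjusted p = 0.0413). The groups overlapped for Kctd9, and its call was lost in 8 of the 11 sets that leave out 1 array (it held with WT array 2, WT array 3 or Rarb-null array 5 omitted; -0.18 to -0.12) and after centring on array medians. The call of Kctd9 was also lost with no filter, with repeated quantile normalisation and with the cortical, oligodendrocyte or astrocyte marker covariate. The differences of these 6 neighbours, -0.15 to 0.11, were all smaller in size than those of Nefl and Nefm. Nothing is read from this, since Nefl and Nefm were chosen for their fall. RMA also compresses the differences of dim probe sets, such as those of the 5 neighbours below the filter.

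Genes that build, move and modify these filaments were followed in 4 related lists. Of their 76 tested genes 8 fell and 3 rose, which is 14.5%, near the 19.6% of all genes, and the count is not read as a result about these lists. Beyond the family, 12 of 22 further intermediate filament and linker genes were tested, and 2 fell and 1 rose, with a median of 0.001. Synm, the gene of synemin, which co-assembles with vimentin and desmin, rose to 8.26, 8.12, 8.06, 8.08 and 8.25 in Rarb-null arrays, against 7.74 to 7.95 in WT arrays (0.29, SE 0.050, limma adjusted p = 0.00141). The keratin gene Krt10 fell to 7.89 in Rarb-null against 8.14 in WT arrays on average (-0.26, SE 0.055, adjusted p = 0.00569), and Krt222 to 9.53 against 9.71 (-0.18, SE 0.044, adjusted p = 0.0121). Lmnb2, a lamin of the nuclear envelope, had a difference of 0.08 (SE 0.042, adjusted p = 0.177), and the cytolinkers Dst, Plec and Macf1, which tie filaments to microtubules and actin, had differences of -0.01, 0.01 and 0.02.

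Of 24 kinase and phosphatase genes listed for their action on neurofilament tails or assembly, 18 were tested, and 1 rose and 1 fell (median 0.002). The protein kinase C gene Prkca rose to 10.47 in Rarb-null against 10.27 in WT arrays (0.21, SE 0.043, limma adjusted p = 0.00547). Csnk2a1, a catalytic subunit of casein kinase 2, fell to 10.96 against 11.07 (-0.11, SE 0.033, adjusted p = 0.0388), a call lost in 7 of 11 sets that leave out 1 array (those omitting WT array 1, 4, 5 or 6, or Rarb-null array 2, 3 or 5). The tail kinase gene Cdk5 and its activator gene Cdk5r1 both had differences of 0.00 (SE 0.034 and 0.031), while the second activator gene Cdk5r2 gave 0.12 (SE 0.039, adjusted p = 0.0535) and Ppp1ca, of protein phosphatase 1, -0.11 (SE 0.040, adjusted p = 0.0705).

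Among 18 tested genes of 21 listed for transport and turnover, 1 fell and 0 rose by limma (median -0.039); at an unadjusted p under 0.05 these counts were 4 and 0. Capn2, the gene of calpain 2, a calcium-activated protease that cuts neurofilament proteins, fell to 9.14 to 9.30 in Rarb-null arrays, against 9.32 to 9.45 in WT arrays (-0.18, SE 0.035, limma adjusted p = 0.00402), with no overlap. Capn1, of calpain 1, had a difference of -0.13 (SE 0.050, adjusted p = 0.0766), the kinesin gene Kif5c -0.11 (SE 0.043, adjusted p = 0.082) and the dynein gene Dync1i1 -0.10 (SE 0.045, adjusted p = 0.135). Kif5a, a motor that carries neurofilaments, gave 0.06 (SE 0.037) and the neurofilament ubiquitin ligase gene Trim2 0.05 (SE 0.035), neither past the threshold.

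Of 28 microtubule and axonal membrane cytoskeleton genes, all tested, 4 fell and 1 rose, with a median of 0.008; after centring on array medians the split turned to 2 lower and 6 higher. Cntnap1, which encodes the paranodal protein Caspr that fixes myelin loops to the axon, fell by far the most among these lists: it read 9.86, 9.87, 10.17, 10.11 and 9.99 in Rarb-null arrays, against 10.74, 10.80 and 10.88 in WT arrays. Its difference of -0.80 (SE 0.056, limma adjusted p = 5.25e-07) was of the size seen for Nefl and Nefm. Map4 (-0.15, SE 0.037, adjusted p = 0.0114) fell and Dpysl3 (0.20, SE 0.055, adjusted p = 0.0231), a growth cone protein gene, rose. The call of Tubb3 (-0.12, SE 0.035, adjusted p = 0.0342), the neuronal beta-tubulin gene, was lost in 9 of 11 sets that leave out 1 array and held when WT array 6 or Rarb-null array 5 was omitted. That of Ank3 (-0.15, SE 0.045, adjusted p = 0.0346), the ankyrin G gene named after its value was seen, was lost in 6 (those omitting WT array 1, 4 or 6, or Rarb-null array 3, 4 or 5). The call of Dpysl3 was lost without Rarb-null replicate 2. The microtubule-associated genes Map1a (0.00), Map1b (0.01), Map2 (0.06) and Mapt (0.03) did not pass the test. Of the 11 calls in these lists, those of Dpysl3, Tubb3, Ank3, Prkca, Csnk2a1, Synm and Krt10 were lost with the mean level of cortical neuron markers as a covariate. Those of Dpysl3, Tubb3, Ank3, Prkca, Csnk2a1 and Krt222 were lost with the oligodendrocyte marker level, and all 11 with the astrocyte marker level. Over all genes tested, calls went from 2341 to 1063, 1139 and 11 with the cortical, oligodendrocyte and astrocyte levels. These losses are therefore not read as a result about the lists. The astrocyte level did not overlap between genotypes, so that covariate and genotype largely coincide. The call of Map4 was lost when probe sets of a gene were averaged, and those of Tubb3, Ank3 and Csnk2a1 after centring on array medians. Those of Tubb3 and Csnk2a1 were also lost with no filter. That of Tubb3 was lost with repeated quantile normalisation or cyclic loess, and that of Csnk2a1 with a replicate block. Without 3 arrays of extreme cortical marker level the calls of Dpysl3, Tubb3, Ank3 and Csnk2a1 were lost. In these 4 lists, 19 of 95 genes were not tested, 9 of them for want of a probe set with a single symbol.

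**Figure D2:**
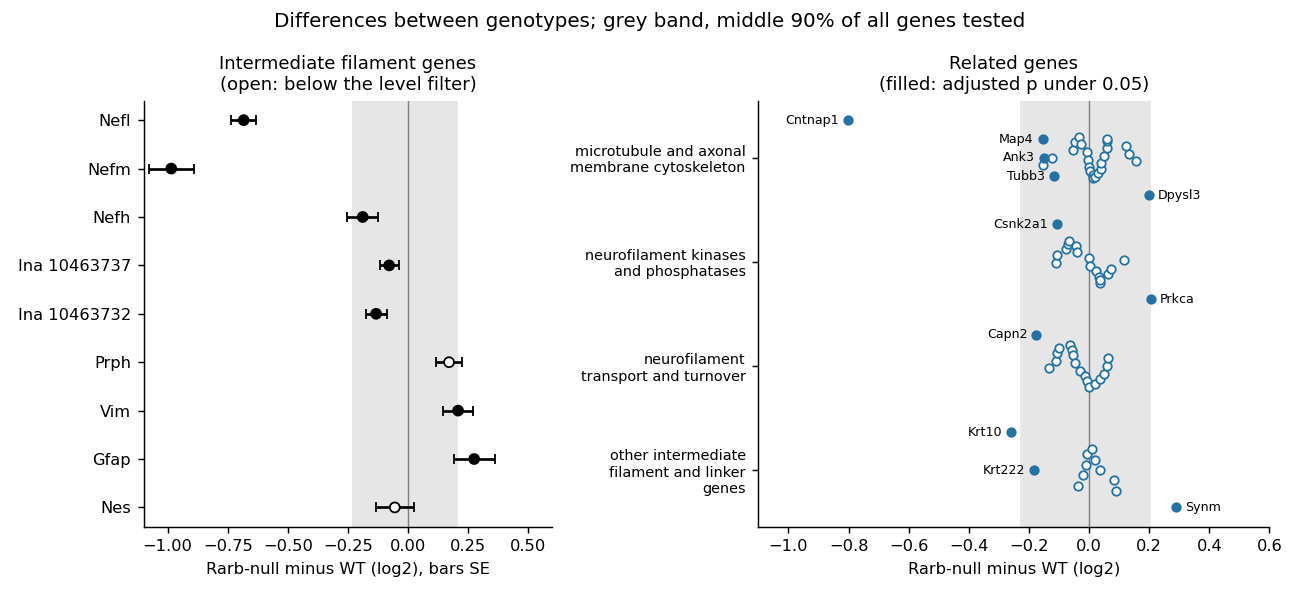
Rarb-null minus WT differences (log2). Left, the 9 intermediate filament probe sets with their SE, open where the mean lies below the filter; right, tested genes of the 4 related lists, filled where the adjusted p is under 0.05, and the grey band spans the middle 90% of all genes tested (-0.23 to 0.20). Nefl, Nefm and Cntnap1 lie far left of the band.

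Variation among mice of the same genotype, which was not used to choose the genes, was examined through deviations from the genotype means over all 11 arrays. Nefl and Nefm ranked the 5 Rarb-null arrays identically, with replicate 3 lowest and replicate 5 highest, and replicate 3 was also the lowest WT array in both. Their deviations had a Pearson r of 0.67 (exact permutation p within genotype 0.0412, adjusted 0.216 over 21 pairs) and a Spearman rho of 0.67 (exact permutation p = 0.0417, adjusted 0.292). Without the 2 arrays farthest from the median of Nefl, r was 0.63 (exact permutation p = 0.0799). The WT arrays did not share 1 order in both genes, since replicate 1 was highest in Nefm and second lowest in Nefl. Taken alone, the 5 Rarb-null arrays gave an r of 0.97 and the 6 WT arrays one of 0.31, so the r over all arrays joins unlike values.

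The highest r in the family, not past the adjusted threshold, was between Nefm and Ina probe set 10463732 (r = 0.73, exact permutation p = 0.0152, adjusted 0.196; rho = 0.73, p = 0.0203, adjusted 0.213; r = 0.75 without the 2 farthest arrays). The same Ina probe set gave an r of 0.69 with Nefh (exact permutation p = 0.0217, adjusted 0.196; rho = 0.54, p = 0.107, adjusted 0.373), which dropped to 0.38 without the 2 farthest arrays and so rests on those. The 2 Ina probe sets had an r of 0.11 with each other, and 10463737 one of 0.73 with Vim (exact permutation p = 0.028, adjusted 0.196; rho = 0.74, p = 0.0189, adjusted 0.213; 0.60 without the 2 farthest arrays). Of 21 pairs, 4 had an unadjusted p under 0.05 and 0 passed after Benjamini-Hochberg adjustment.

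**Figure D3:**
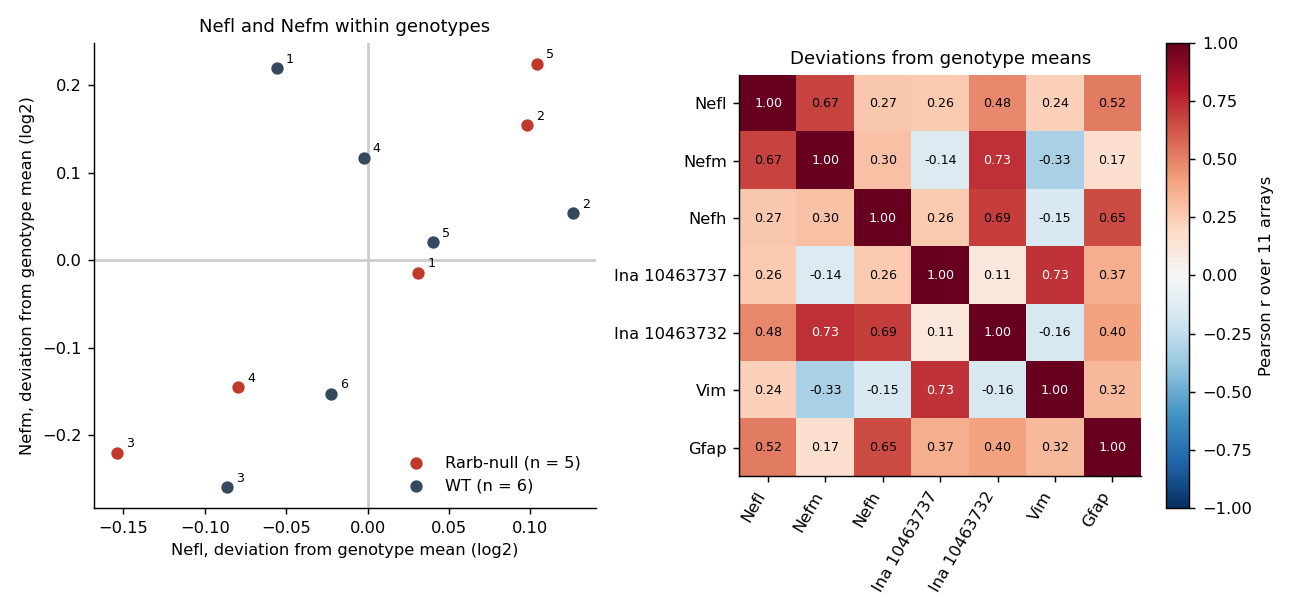
Left, deviations of Nefl and Nefm (log2) from their genotype means, with replicate numbers; right, Pearson r of such deviations over 11 arrays between the 7 probe sets above the filter. Rarb-null arrays 3, 4, 1, 2 and 5 run upwards in both genes in the left panel, and r between Nefl and Nefm over all arrays is 0.67.

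By the same measure, over 11 arrays and 11962 other genes, the genes most like Nefl were Med11 (r = 0.90), Manba (0.90), Tnfaip8l3 (0.87), Paqr8 (0.87) and Slitrk1 (0.86). Med11 is a Mediator subunit gene, Manba encodes a lysosomal mannosidase and Slitrk1 a synaptic membrane protein. Nefm was at rank 206 in this order and Nefh at 2634. Those most like Nefm were Sema3e (0.91), which encodes a secreted semaphorin, the deubiquitinase gene Yod1 (0.91), the peroxisomal transporter gene Abcd2 (0.89), Kndc1 (0.87) and B930095G15Rik (0.87), with Nefl at rank 190. No test was made of these r, and the highest of 11962 over 11 arrays can be high without any relation. Between genotypes these 10 genes differed among themselves. Abcd2 (-0.39, SE 0.046, limma adjusted p = 8.17e-05), Paqr8 (-0.21, SE 0.034, adjusted p = 0.00102) and Yod1 (-0.10, SE 0.033, adjusted p = 0.0402) fell. Kndc1 (0.19, SE 0.042, adjusted p = 0.00704) and B930095G15Rik (0.16, SE 0.045, adjusted p = 0.0262) rose. The call of Yod1 was lost in 6 of 11 sets that leave out 1 array (those omitting WT array 1, 4 or 5, or Rarb-null array 1, 3 or 4), and that of B930095G15Rik when Rarb-null array 2 or 5 was omitted. With the cortical marker covariate, or without 3 arrays of extreme cortical marker level, Yod1, Kndc1 and B930095G15Rik were not called, nor was Yod1 after centring on array medians. Yod1 was also not called with no filter, repeated quantile normalisation, cyclic loess, trended and robust variances, or the oligodendrocyte or astrocyte marker covariate. Sema3e (-0.01), Med11 (0.02), Tnfaip8l3 (-0.04), Manba (-0.08) and Slitrk1 (-0.13) did not pass.

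Marker levels of some cell types differed between genotypes and those of others did not, and all lists are given beside these results. Of all genes tested 19.6% were called, and the counts of called markers here and below stand beside that share. Cortical neuron markers (10 of 12 used, 1 below the filter) stood at 9.24 to 9.73 in Rarb-null and 8.70 to 9.30 in WT arrays, with 4 genes higher and 0 lower, opposite in direction to Nefl and Nefm. Projection neuron markers (10 of 12 used) lay in the same direction as Nefl and Nefm, with 7 of 10 lower and 0 higher, and their level was 11.56 to 11.68 in Rarb-null and 11.83 to 11.91 in WT arrays, without overlap. Their part in the differences of Nefl and Nefm was not tested. With the mean level of cortical neuron markers as a covariate the difference of Nefl was -0.80 and that of Nefm -1.12. Without 3 arrays of extreme cortical level (WT replicates 3 and 4 and Rarb-null replicate 5) these differences were -0.73 and -1.08. Of the fast-spiking interneuron markers, which mark a neurofilament-rich cell type, 5 of 8 were used. Pvalb, the 1 below the filter (mean 6.80 in Rarb-null and 7.06 in WT arrays), is not in their level. The markers used were at 8.12 to 8.36 in Rarb-null and 8.11 to 8.26 in WT arrays, with 1 gene lower and 0 higher by limma (2 and 0 at an unadjusted p under 0.05). Within genotypes their relation to Nefm did not pass the adjustment (r = 0.81, exact permutation p = 0.00221, adjusted 0.17 over 77 pairs; rho = 0.84, p = 0.00352, adjusted 0.261; r = 0.74 without the 2 farthest arrays), nor did that to Ina probe set 10463732 (r = 0.84, exact permutation p = 0.00906, adjusted 0.233; rho = 0.81, p = 0.00826, adjusted 0.261; r = 0.66 without the 2 farthest arrays). Cholinergic interneuron markers (7 of 8 used, 0 below the filter) were at 8.11 to 8.26 in Rarb-null and 8.29 to 8.48 in WT arrays, with 4 genes lower and 0 higher, and their part in the differences of Nefl and Nefm was not tested. Oligodendrocyte markers (9 of 10 used) were at 9.32 to 9.57 in Rarb-null and 9.47 to 9.72 in WT arrays, with 3 genes lower and 0 higher, the direction of Nefl and Nefm. With them as a covariate the difference was -0.67 for Nefl and -0.89 for Nefm.

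Astrocyte markers other than filament genes ran against Gfap. All 10 were tested and had negative differences, 5 of them called lower and 0 higher, and their mean level was 10.33 to 10.39 in Rarb-null and 10.50 to 10.55 in WT arrays, without overlap. With this level as a covariate 11 of all genes tested were called, and the differences were -0.45 (SE 0.235) for Nefl and -0.62 (SE 0.428) for Nefm. Slc4a4, a bicarbonate transporter gene, had the largest change of the list (-0.51, SE 0.042, limma adjusted p = 2.8e-06). Of 10 genes of reactive astrocytes 7 were below the filter, including Lcn2 and Timp1, 1 rose (S100a10, 0.40, SE 0.066, adjusted p = 0.00104) and Serpina3n gave -0.16 (SE 0.110, adjusted p = 0.327); the level was 9.30 to 9.44 in Rarb-null and 9.17 to 9.42 in WT arrays. Within genotypes the relation of Gfap to the cortical marker level did not pass the adjustment (r = 0.76, exact permutation p = 0.015, adjusted 0.288; rho = 0.59, p = 0.0753, adjusted 0.483; r = 0.71, p = 0.149, without the 2 farthest arrays), nor did that of Vim to the vessel cell markers (r = 0.74, exact permutation p = 0.0228, adjusted 0.329; rho = 0.79, p = 0.0102, adjusted 0.261; r = 0.82). Of 77 pairs of probe set and marker list, 8 had an unadjusted p under 0.05 and 0 passed after adjustment. Those not yet named included Nefh with astrocyte markers (r = 0.77, exact permutation p = 0.00861) and Nefl with cortical markers (r = 0.64, p = 0.0319). The rest were Ina probe set 10463737 with vessel cell markers (r = 0.71, exact permutation p = 0.028) and 10463732 with astrocyte markers (r = 0.69, p = 0.0342). Without the 2 farthest arrays these r were 0.69, 0.29, 0.75 and 0.09, in that order.

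Vessel cell markers (all 10 used) were at 8.33 to 8.48 in Rarb-null and 8.37 to 8.51 in WT arrays, and microglial markers (7 of 9 used, 1 below the filter) at 8.71 to 8.92 in Rarb-null and 8.78 to 8.95 in WT arrays. The limma fit called 0 genes of either list, while 1 vessel cell and 3 microglial genes had an unadjusted p under 0.05. Progenitor markers (5 of 9 used, 3 below the filter) were at 8.29 to 8.33 in Rarb-null and 8.25 to 8.49 in WT arrays, with 0 called by limma and 1 at an unadjusted p under 0.05. Of 8 ependymal markers 6 were below the filter, including Foxj1, and both of the others rose; their level was 8.26 to 8.36 in Rarb-null and 8.03 to 8.20 in WT arrays. The part of these cell types in the values of Vim, Gfap and Nes was not tested.

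**Figure D4:**
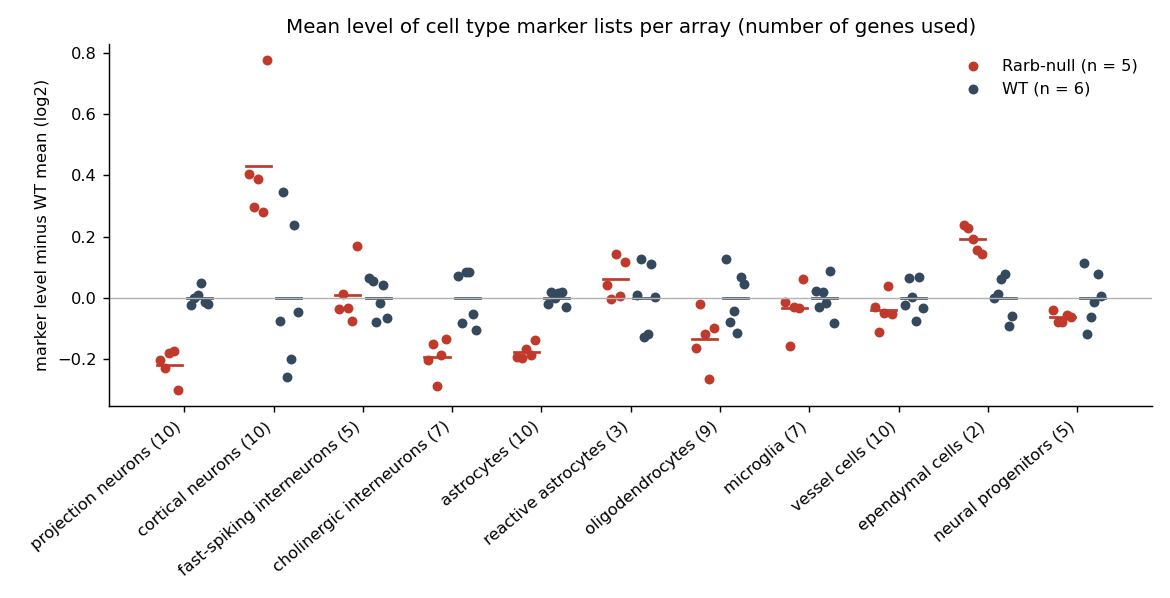
Mean log2 level of each marker list per array, as the difference from the WT mean, with Rarb-null arrays (n = 5) left of WT arrays (n = 6), lines at group means and the number of genes used in brackets. The astrocyte, projection neuron, cholinergic and ependymal lists do not overlap between genotypes, and the cortical list is higher in Rarb-null arrays on average, with overlap.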

How the data were processed

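Expression was measured on Affymetrix Mouse Gene 1.0 ST arrays with 100 ng of total RNA per mouse, per the labels' protocols. The deposited values are log-scale expression after RMA (background subtraction, quantile normalisation and probe set summary), per the submitters' processing notes and the labels; that the deposited scale is log2 was inferred from its range. RMA compresses the differences of dim probe sets. Software version, annotation and the arrays normalised together are not given in the sources used here. Depth does not apply to arrays; their number limits precision.

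Of 35556 probe sets, 21789 had 1 gene symbol, 1621 had several and 12146 none listed; symbols were updated through Entrez identifiers with RefSeq GRCm38.p6. The brightest probe set stood for a gene. Genes above the 40th percentile of mean level were compared with limma 3.58.1 in R 4.3.3 (lmFit, eBayes, Benjamini-Hochberg, threshold 0.05). SEs of Prph and Nes come from the fit without the filter. Correlations used deviations from genotype means and all 86400 permutations within genotype (two-sided). The procedure was tested on simulated data.

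The members and lists were chosen with earlier results of these data known. Named genes are the members, Rarb, up to 4 genes per list with the smallest p, 5 genes most like Nefl and Nefm each, and 3 neighbours on each side; further list genes were named after their values were seen. Alternatives were filters, scalings, probe set averaging, variance models, covariates, a replicate block and leaving out arrays.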

Additional observations from a re-analysis of the deposited data

Results flagged for a closer look

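Of 106 groups of arrays examined, 4 held a value whose gap to the nearest other array was a large share of the group's range; chance gives about 1 in 20. Prph read 6.53 in WT replicate 3, against 6.31 to 6.39 in the other WT arrays. Adamdec1, a neighbour of Nefm, read 5.24 in WT replicate 3, against 5.41 to 5.50 in the others, and both genes were below the level filter. Tnfaip8l3, one of the genes most like Nefl, read 8.76 in WT replicate 2, against 8.38 to 8.47 in the others. That array was also the highest WT array of Nefl (11.79). The cortical neuron marker level was 9.73 in Rarb-null replicate 5, against 9.24 to 9.36 in the other Rarb-null arrays.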

How the results depend on the processing

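The members were chosen on this contrast, so how their differences moved under the 24 alternatives is a description and supports nothing. Of 145 member differences under alternatives, 137 moved by less than the spread between arrays. Part of these could not move. The filters and the trended and robust variances leave a difference of means as it is, and averaging probe sets can change Ina alone. Prph and Nes entered only with no filter. Counts over all genes (1436 lower, 905 higher, 2341 in all) were within 1.5 times in 55 of 72 cases, and counts of the 4 lists in 141 of 192. The rest follow, and the cause was not tested unless given.

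Centring each array gave 939 lower and 1677 higher genes, and the stricter level filter, which tests fewer genes, gave 510 higher. The cortical marker covariate gave 734, 329 and 1063, the oligodendrocyte marker covariate 791, 348 and 1139, and leaving out 3 arrays of extreme cortical marker level 874, 473 and 1347 (lower, higher and in all). The astrocyte marker covariate left 6, 5 and 11. The astrocyte level does not overlap between genotypes, so this covariate and genotype largely coincide. Leaving out 1 array at a time gave 963 to 1566 lower, 584 to 1010 higher and 1547 to 2576 in all; the lowest counts of higher genes and of all calls came without Rarb-null replicate 3.

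With the cortical covariate the difference was -0.80 for Nefl, -0.15 for Ina and 0.035 for Gfap. With the astrocyte covariate it was -0.45 for Nefl, -0.62 for Nefm, 0.55 for Nefh, 0.11 for Ina and 0.97 for Gfap. Leaving out 1 array gave -0.71 to -0.65 for Nefl, -1.04 to -0.93 for Nefm, -0.22 to -0.14 for Nefh and -0.10 to -0.06 for Ina.

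For the filament and linker list (2 lower, 1 higher), the stricter filter and the cortical covariate each gave 1 and 0, the oligodendrocyte covariate 1 lower, and the astrocyte covariate 0 and 0. For kinases and phosphatases (1 lower, 1 higher), the lower count was 0 with no filter, with centred arrays, with any of the 3 covariates and without the 3 arrays, and 2 with trended and robust variances or array weights. The higher count there was 3 with centred arrays or repeated quantile normalisation, 2 with the stricter filter, cyclic loess or trended variances, and 0 with any covariate. For transport (1 lower), array weights gave 2, the cortical covariate 4, the astrocyte covariate 0 and omission of the 3 arrays 3. For microtubules (4 lower, 1 higher), centring gave 2 and 6, the astrocyte covariate 0 and 0, and the cortical and oligodendrocyte covariates and omission of the 3 arrays each gave 2 and 0. Leaving out 1 array gave 0 to 1 lower and 1 to 2 higher for kinases, 1 to 4 lower for transport, and 2 to 4 lower and 0 to 1 higher for microtubules. Of the pairs of within-genotype correlations, 0 passed the threshold in the 3 settings tried.

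The labels do not say that replicate numbers mark pairs, and the arrays were not treated as paired, since same-numbered arrays had correlations of deviations of 0.257, 0.0557, 0.255, 0.188 and 0.425, not all of them over 0.1. As a hint from the data, 3 of 5 Rarb-null arrays and 3 of 5 WT arrays were closest to their own number, which leaves shared handling within numbers untested. With the replicate number as a block, the fit called 1793 genes lower, 1079 higher and 2872 in all. The differences were -0.69 for Nefl and -1.02 for Nefm, and 2 kinase genes were higher. The calls of Vim and Csnk2a1 were lost, and Nefh was called lower.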
